A study of Mus musculus with 130 samples.

Results

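The 10 genes of the growth hormone and insulin-like growth factor (IGF) axis described here were given as a list of symbols. The list was chosen with earlier results of these data known. The genes were followed in the livers of mice fed different amounts of iron. They are the receptor Ghr, the transcription factor Stat5b, the feedback inhibitors Socs2 and Cish, the repressors Bcl6 and Cux2, the circulating factor Igf1, its carrier subunit Igfals, and the binding proteins Igfbp1 and Igfbp2. All 10 symbols matched an Ensembl gene, among 35274 genes in the table of the diet study and 35711 in the table of the strain panel, and all 10 passed the filter on low counts in both sets.

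The study measured liver RNA by sequencing in 130 mice, all labelled male. The first set, called the diet study here, had 5 diets with 3 C57BL/6J mice each: chow, 50 ppm iron (labelled sufficient), 500 ppm iron (labelled elevated), 2% carbonyl iron (20000 ppm), and 2% carbonyl iron in a diet whose fiber source was cellulose. The second set, the panel, had 115 mice of 114 inbred strains that spent 4 weeks on chow and then 6 weeks on 2% iron. No panel mouse was fed another diet. The panel held 56 BXD strains (from C57BL/6J and DBA/2J), 20 AXB/BXA strains (from A/J and C57BL/6J), 4 BXH strains, 3 CXB strains and 31 other inbred strains. Each strain was 1 mouse except 129X1/SvJ, which had 2, so a difference between strains cannot be told apart from a difference between single mice. The labels give neither ages nor feeding state, hour of collection or batch, and for the diet study no weeks on diet. The p-values below therefore measure the spread between these mice.

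Growth hormone released by the pituitary binds GHR on hepatocytes, and the kinase JAK2 then activates STAT5B, which enters the nucleus and turns on genes such as Igf1, Igfals, Socs2 and Cish. SOCS2 and CIS, the product of Cish, dampen the receptor in return. In rodents the hormone is released in pulses in males and more continuously in females, and this pattern, through STAT5B, BCL6 (a repressor enriched in male liver) and CUX2 (a repressor enriched in female liver), sets much of the sex difference of liver transcripts. Igfbp1 is known as a gene restrained by insulin and raised by fasting and stress, and both binding proteins hold IGF1 in the circulation.

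STAT5 and BCL6 recognise overlapping sites built on the palindrome TTCNNNGAA. Promoter windows of RefSeq (GRCm38.p6, 250 bases before to 50 after each start) were found for 9 of the 10 genes, Socs2 being the exception. The palindrome reads the same on both strands. It stood at least once in 8.3% of 32851 windows, at least 2 times in 0.457% and at least 3 times in 0.0335%. These shares are per window, and the 9 genes had 16 windows, so the shares do not apply to a count of genes. Cish, Bcl6 and Igfals held the palindrome, and the stretches are shown because their STAT5 and BCL6 connection is what the axis turns on. Capitals mark the palindrome, and all are written 5′ to 3′ along the gene.
Cish, chr9:107296654-107296683, plus strand: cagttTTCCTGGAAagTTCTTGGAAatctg
Bcl6, first start, chr16:23988937-23988995, minus strand: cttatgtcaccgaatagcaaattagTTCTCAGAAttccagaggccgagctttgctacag
Bcl6, second start, chr16:23981355-23981459, minus strand: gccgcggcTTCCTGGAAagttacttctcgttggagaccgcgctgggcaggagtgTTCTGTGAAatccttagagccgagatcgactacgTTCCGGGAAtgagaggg
Igfals, first start, chr17:24877594-24877630, plus strand: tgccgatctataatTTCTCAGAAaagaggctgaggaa
Igfals, second start, chr17:24878148-24878206, plus strand: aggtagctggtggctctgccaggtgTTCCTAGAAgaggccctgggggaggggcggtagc
For Igfbp1, whose insulin response element is a textbook binding site of forkhead factors, the core CAAAACA was searched on both strands. It stood in 6.28% of all windows and in that of Igfbp1, where capitals mark it.
Igfbp1, chr11:7197654-7197710, plus strand: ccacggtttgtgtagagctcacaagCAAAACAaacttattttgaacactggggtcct
The 2 Cish matches began 0 and 11 bases from the start, and all 30 bases of the Cish stretch lay in annotated exons. All matches describe the letters of the windows, and no binding was measured.

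Levels are CPM, counts scaled to a common library size with TMM factors. Fold changes and adjusted p-values (Benjamini-Hochberg over 13560 genes) come from the quasi-likelihood test of edgeR fitted to all 15 diet mice, and "called" means an adjusted p under 0.05. The diet libraries held 10.42 to 20.36 M counts each and the panel libraries 9.41 to 20.57 M, where M is 1000000 counts. On the first principal component of the diet libraries, which carried 48.4% of the variance, the second 500 ppm mouse stood at -0.658, between the other mice on 50 ppm, 500 ppm or chow (22.6 to 42.9) and the 6 mice on 2% iron (-61.0 to -29.4). Axis results that moved most without it are given with and without it. In the panel the library labelled BXD65/RwwJ had a summed level of 3.94 CPM for 4 Y-linked genes against 118 to 328 CPM in the others, which goes against its label as male. Without it 18 of 36 relations between axis genes passed for Pearson's r, the same number as with it. The Stat5b values share sequence with the neighbouring paralog Stat5a, and Igf1, Cish, Bcl6 and Cux2 overlap genes on the opposite strand; the strand setting of the counting is not given in the sources used here, so reads in the overlaps cannot be told apart.

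On 2% iron against 50 ppm, Ghr, Igfals and Igfbp2 fell and Igfbp1 rose, while Igf1 itself was not called (log2 difference -0.01, SE 0.16). These are 4 of the 10 genes, beside 15.7% of all genes called in this comparison. Since the 10 genes were chosen with earlier results of these data known, this count is a description and no test. The 2 groups did not overlap in 4 of the 10 genes (Ghr, Cux2, Igfbp1 and Igfbp2), beside 36.8% of all genes. The median log2 change of the 10 genes was -0.03 and that of all genes 0.01.

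Ghr, the growth hormone receptor (chromosome 15, 3317760 to 3583492, minus strand, GRCm38), was at 434, 515 and 553 CPM in the 50 ppm mice and at 250.8, 289 and 311 CPM in the 2% iron mice. In the 2% iron mice with cellulose it was at 241, 252 and 263 CPM. All 6 mice on 2% iron lay below all 9 others, whose lowest value was 357 CPM in the second 500 ppm mouse. Ghr fell by 0.82 on the log2 scale (SE 0.13, adjusted p = 0.00148), from 500.5 ± 60.4 to 283 ± 30.4 CPM (SD, n = 3). The fall kept an adjusted p of 0.00904 or lower in all 14 alternative settings. In bulk liver RNA, fewer cells of a type and less RNA per cell cannot be told apart.

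Stat5b, the transcription factor that carries the signal to the nucleus (chromosome 11, 100780731 to 100850724, minus strand), was at 67.8, 74.1 and 77.7 CPM on 50 ppm. On 2% iron it was at 68.2, 70.1 and 74.7 CPM, and the groups overlapped. The log2 difference was -0.04 (SE 0.12, edgeR adjusted p = 0.848).

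Cish and Socs2, inhibitors induced by STAT5, varied widely among mice of 1 diet. Cish (chromosome 9, 107296026 to 107302784, plus strand) was at 3.09, 3.895 and 7.85 CPM on 50 ppm and at 7.56, 11.9 and 13.1 CPM on 2% iron, with the groups overlapping by 1 mouse. Its log2 difference was 1.14 (SE 0.58, edgeR adjusted p = 0.201). Socs2 (chromosome 10, 95385362 to 95417180, minus strand) was at 6.09, 6.88 and 28.6 CPM on 50 ppm and at 18.1, 25.1 and 43.7 CPM on 2% iron, a log2 difference of 1.04 (SE 0.68, edgeR adjusted p = 0.325). The third 50 ppm mouse was higher than 2 of the 3 mice on 2% iron. Neither inhibitor was called in any diet comparison.

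The 2 repressors of sex-biased genes had opposite signs. Bcl6 (chromosome 16, 23965052 to 23988852, minus strand) was at 32.6, 67.3 and 119 CPM on 50 ppm and at 14.1, 28.01 and 32.6 CPM on 2% iron. The highest 2% iron mouse and the lowest 50 ppm mouse were level, and the third 50 ppm mouse, the one high in Socs2, stood far above the rest. The log2 difference was -1.55 (SE 0.50, edgeR adjusted p = 0.0506), which was past the threshold in 5 of 14 alternative settings, among them DESeq2 (adjusted p = 0.0346) and the fit without the second 50 ppm mouse (0.0244). Against 50 ppm, Bcl6 fell in the mice fed 2% iron with cellulose, at 11.7, 19.8 and 36.4 CPM, by 1.69 (SE 0.50, edgeR adjusted p = 0.0218). That call ended without the third 50 ppm mouse (log2 change -1.15, adjusted p = 0.112), and without the first or the third mouse of the cellulose diet (0.0714 and 0.0734).

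Cux2 (chromosome 5, 121856366 to 122050102, minus strand) was at 0.387, 0.775 and 2.15 CPM on 50 ppm. It was at 6.22, 12.02 and 13.2 CPM on 2% iron and at 27.9, 30.3 and 45.2 CPM on 2% iron with cellulose. These 3 diets did not overlap. The log2 difference of 2% iron from 50 ppm was 3.18 (SE 1.03, edgeR adjusted p = 0.0515), and that of the cellulose diet from 50 ppm was 4.90 (SE 0.997, adjusted p = 0.00294). In the 500 ppm group the second mouse was at 24.03 CPM and the other two were at 0.791 and 1.55 CPM. Without that mouse, the change on 2% iron was called (log2 change 3.18, adjusted p = 0.000486).

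**Figure D1:**
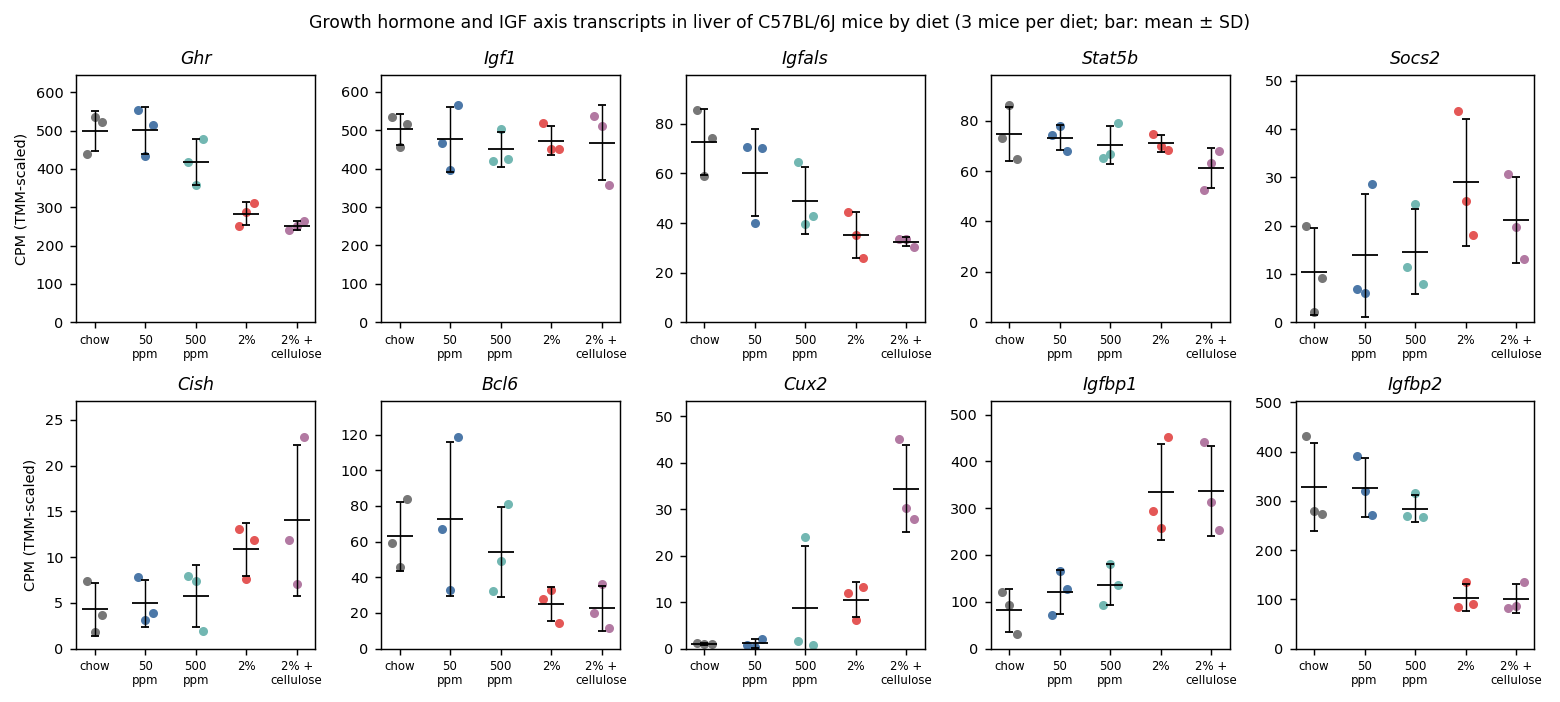
Liver levels (TMM-scaled CPM, linear axes from 0) of the 10 genes in the 5 diet groups, 1 point per mouse, with the mean and SD of 3 mice. The 6 mice on 2% iron lie apart from the 9 other mice for Ghr, Igfbp1 and Igfbp2, and 1 mouse on 500 ppm stands at 24.03 CPM for Cux2.

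Igf1, the hormone-induced growth factor (chromosome 10, 87858265 to 87937042, plus strand), was at 396.2, 467 and 566 CPM on 50 ppm and at 451, 452 and 518 CPM on 2% iron. The values of the 5 diets overlapped throughout, from 356 to 566 CPM. The log2 difference of 2% iron from 50 ppm was -0.01 (SE 0.16, edgeR adjusted p = 0.976). On the deposited TPM scale it was 0.08, so its sign was not settled.

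Igfals (chromosome 17, 24865997 to 24882010, plus strand), which encodes the acid-labile subunit that extends the life of IGF1 in blood, was at 40.1, 70.1 and 70.8 CPM on 50 ppm and at 26.03, 35.2 and 44.4 CPM on 2% iron. The second 50 ppm mouse overlapped the 2% iron mice. Igfals fell by 0.78 (SE 0.24, edgeR adjusted p = 0.0457). The call was lost in 7 of 14 alternatives, for example without the first 50 ppm mouse (log2 change -0.65, adjusted p = 0.172), without the third (adjusted p = 0.138), without the second 2% iron mouse (0.0995), without the third (0.166), and with limma on log2(TPM + 1) (0.139). Against chow, where Igfals was at 58.9, 74.2 and 85.5 CPM and the groups did not overlap, it fell by 1.05 (SE 0.24, edgeR adjusted p = 0.00741), in every alternative as well.

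Igfbp1 (chromosome 11, 7197782 to 7202546, plus strand), a rapidly regulated binding protein, was at 71.5, 127 and 165 CPM on 50 ppm and at 258, 294 and 452 CPM on 2% iron. With cellulose it was at 254, 313 and 441 CPM. All 6 mice on 2% iron were above all 9 others, of which the highest stood at 181 CPM. Igfbp1 rose by 1.47 on the log2 scale (SE 0.43, edgeR adjusted p = 0.0348), and the call was lost in 4 of the 6 settings that left out 1 mouse of these 2 groups. Without the first 2% iron mouse the adjusted p was 0.0613, without the third 0.129, without the first 50 ppm mouse 0.145 and without the third 0.0800.

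Igfbp2 (chromosome 1, 72824503 to 72852474, plus strand), the other binding protein on the list, was at 271, 319 and 390 CPM on 50 ppm and at 83.8, 91.1 and 136 CPM on 2% iron. With cellulose it was at 82.5, 86.6 and 135 CPM. The highest mouse on 2% iron stood far below the lowest of the 9 others, at 268 CPM. Igfbp2 fell by 1.66 (SE 0.24, edgeR adjusted p = 9.44e-04), in every one of the 14 alternatives as well. Ghr, Igfbp1 and Igfbp2 were thus 3 of 10 genes in which the 6 mice on 2% iron did not overlap the 9 others, beside 13.3% of all genes.

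The other diet contrasts used partly the same mice, so their values are given side by side. Chow has no labelled iron content, and only the cellulose diet has a labelled fiber source. Contrasts with these diets can therefore differ in more than iron. With cellulose, 2% iron against 50 ppm called 6 of the 10 genes (29.7% of all genes): Ghr fell by 0.99, Igfals by 0.90, Bcl6 by 1.69 and Igfbp2 by 1.69, and Cux2 and Igfbp1 rose, the latter by 1.47. Here Igfals was no longer called without the first or the third 50 ppm mouse (adjusted p = 0.0636 and 0.0545), nor Igfbp1 without either of these (0.0861 and 0.0514) or the first cellulose mouse (0.0804). Against chow, 2% iron called 5 (22.8% of all genes): Ghr fell by 0.82, Igfals by 1.05 and Igfbp2 by 1.66, Cux2 rose by 3.38 and Igfbp1 by 2.04. The Cux2 call against chow was lost in 5 of 12 alternatives, each leaving out 1 mouse (adjusted p 0.0709 to 0.0941). Groups did not overlap in 5 of the 10 genes in the first of these comparisons (44.5% of all genes) and in 7 in the second (40.1%).

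Against 500 ppm, 2% iron called 2 of the 10 (11.3% of all genes): Ghr fell by 0.56 (SE 0.13, edgeR adjusted p = 0.0132) and Igfbp2 by 1.46 (SE 0.24, adjusted p = 0.00215). Those groups did not overlap in 3 genes (29.9% of all genes). Without the second 500 ppm mouse 4 genes were called, Cux2 (log2 change 3.18, adjusted p = 0.00116; 0.18 with that mouse) and Igfbp1 (1.55, adjusted p = 0.0485) being the added ones, and without the third, or without the first 2% iron mouse, only Igfbp2 was, Ghr having adjusted p-values of 0.0581 and 0.0527.

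No member was called for 500 ppm against 50 ppm, where edgeR called 0% of all genes (428 of 13560 had an unadjusted p under 0.05) and 1 of the 10, Cux2, had an unadjusted p under 0.05; DESeq2 called 2 genes in all and none of the 10. The log2 difference of Cux2 there was 3.01 (SE 1.02, edgeR unadjusted p = 0.0109) and, without the second 500 ppm mouse, -0.01 (SE 0.62, unadjusted p = 0.994), with 0 of the 10 then under 0.05. Ghr differed by -0.26 (SE 0.13) and Igfbp2 by -0.20 (SE 0.23) there. None was called for chow against 50 ppm (0.391% of all genes), with 0 of 10 at an unadjusted p under 0.05, nor by DESeq2. None was called for the cellulose form of the 2% iron diet against the other (0.0811% of all genes), with 1 of 10 at an unadjusted p under 0.05. Groups did not overlap in 0, 0 and 2 genes in these 3 comparisons, beside 7.25%, 17.1% and 17.4% of all genes. The 2 were Stat5b, with a log2 difference of -0.21 (SE 0.12), and Cux2, with 1.71 (SE 0.76, edgeR adjusted p = 0.362).

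**Figure D2:**
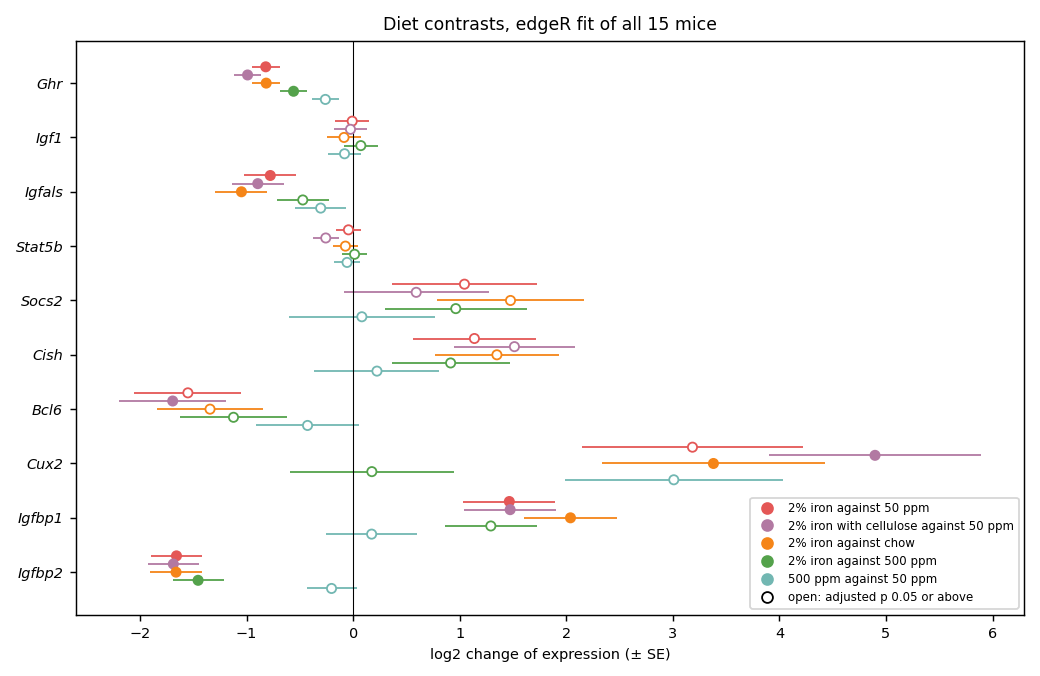
Log2 changes (x axis, ± SE) of the 10 genes in 5 diet contrasts of the edgeR fit, with filled points for genes called at an adjusted p under 0.05. Ghr and Igfbp2 lie left of 0 and are called in all 4 contrasts with 2% iron, Igf1 and Stat5b lie near 0, and no point of the 500 ppm contrast is filled.

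Markers of some other cells moved in the same contrast. Of 17 Kupffer cell and macrophage markers 13 rose, their summed level going from 215 to 347 CPM on 50 ppm to 805 to 877 CPM on 2% iron. Of 6 erythroid markers tested, 5 rose and 1 fell. Of 12 hepatocyte markers none rose and 2 fell, with a median log2 change of 0.00. In the other lists, 2 of 12 endothelial, 1 of 14 stellate and 1 of 6 cholangiocyte markers were called, all rising. None of 6 lymphocyte, 4 neutrophil or 1 pancreas markers tested was called. These counts stand beside 15.7% of all genes called, a share that the hepatocyte markers were close to. Their part in the changes of the axis genes was not tested.

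Levels of different genes can be compared on the deposited TPM scale, which is per transcript length. On 50 ppm, Igfbp2 was highest (299.7 to 365.5 TPM), then Igf1 (201.8 to 248.3) and Ghr (184 to 223), which overlapped, and Igfbp1 (47.6 to 123). Igfals (20.8 to 38.1), Bcl6 (9.67 to 36.8), Stat5b (13.4 to 15.6) and Socs2 (4.02 to 16.5) each overlapped the next, followed by Cish (2.03 to 4.17), which overlapped Socs2, and Cux2 (0.414 to 1.86). On 2% iron the order changed at the top: Igfbp1 (204 to 329 TPM) and Igf1 (199 to 253) overlapped, above Ghr (107 to 130) and Igfbp2 (90.4 to 147), which overlapped each other.

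A set of 5 lists gives the wider pathway. Of 33 tested genes of growth hormone signalling (kinases, phosphatases, STATs, other SOCS genes and liver factors), 4 rose and 2 fell on 2% iron against 50 ppm, beside 15.7% of all genes called, with a median log2 change of 0.14 (of all genes, 1155 rose and 972 fell, with a median of 0.01). The risers included Ptpn1, a phosphatase that removes phosphate from JAK2 (0.45, SE 0.09), Adam17, a protease that can shed the receptor's outer part (0.47, SE 0.13) and the kinase Lyn (0.40, SE 0.11). The falls were the liver transcription factors Foxa1 (-0.73, SE 0.23) and Cebpa (-0.40, SE 0.11). The count was 1 to 3 whichever mouse of the 2 groups was left out, and it ran from 0 to 8 over all alternatives. In the cellulose form 9 rose and 6 fell, beside 29.7% of all genes called (2083 rose and 1943 fell), among the falls the insulin receptor substrate gene Irs1 (-1.26, SE 0.25).

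Of 10 tested genes of the IGF system, 1 rose and 2 fell, beside 15.7% of all genes called. Their median log2 change was 0.02, and 0 to 3 were called over the alternatives. The count was 0 without the first or the third 50 ppm mouse, and 1 without the second or the third 2% iron mouse. Igfbp3, the main partner of IGF1 in the circulating complex with the acid-labile subunit, rose by 1.21 (SE 0.31), while the protease gene Htra1 (-1.12, SE 0.35) and Igfbp4 (-0.40, SE 0.12) fell. Of 20 genes that respond to feeding and fasting, none rose and 3 fell, among them Cpt1a, of fat oxidation, by 0.92 and Pck1, of gluconeogenesis, by 0.65. That count is close to the 15.7% of all genes called. The feeding count ran from 1 to 3, with 1 without the third 2% iron mouse or the second 50 ppm mouse.

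Genes with male-biased and female-biased liver expression are the classical readout of the hormone's pattern. The lists here were chosen with earlier results of these data known, so their counts are a description and no test of that pattern. Of 25 male-biased genes tested, 22 fell on 2% iron against 50 ppm and none rose, beside 15.7% of all genes called. Their median log2 change was -1.85, and the count ran from 17 to 23 over the alternatives. The largest falls were those of the major urinary protein genes Mup7 (-8.29), Mup17 (-7.95) and Mup1 (-5.96), whose near-identical copies make the split of reads among them uncertain. Of 29 female-biased genes tested, 6 rose and 1 fell, beside the same 15.7% of all genes. Their median log2 change was 1.74. Over the alternatives 3 to 12 were called, with 3 without the first 50 ppm mouse and 12 without the second 500 ppm mouse. Cyp2a4 (6.66), Cyp2b9 (6.56) and Cyp2b10 (5.63), all cytochrome P450 genes, rose most, and Nox4, an oxidase gene, fell by 1.24. The mean of Cyp2b10 was higher on chow (48.6 CPM) than on 2% iron (32.5 CPM). That of Cyp2a4 was higher on 500 ppm (49.3 CPM) than on 2% iron (37.9 CPM). Cyp2b9 was lower on chow (0.415 CPM) and on 500 ppm (48.6 CPM) than on 2% iron (142.5 CPM). In the cellulose form against the other 2% iron diet, 6 male-biased genes fell and no female-biased gene was called, beside 0.0811% of all genes.

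In the panel, where every strain ate 2% iron, the spread of the axis genes differed widely. Across 114 strains Stat5b ran from 37.2 CPM (BALB/cJ) through a median of 59.7 to 117 CPM (BXA13/PgnJ), and Igf1 from 283 CPM (BXA12/PgnJ) through 575 to 959 CPM (MRL/MpJ). Ghr ran from 63.4 CPM (NZB/BlNJ) through 329 to 555 CPM (A/J), a span of 8.76-fold. Igfals ran from 6.13 CPM (BXH2/TyJ) through 52.5 to 116 CPM (CE/J). In SD of log2 CPM, Stat5b varied least (0.23), followed by Igf1 (0.36), Ghr (0.56) and Igfals (0.69).

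The feedback inhibitors and repressors ranged further. Socs2 ran from 3.85 CPM (BXD15/TyJ) through 25.7 to 67.1 CPM (BXD21/TyJ), and Cish from 2.03 CPM (BXH14/TyJ) through 18.05 to 63.4 CPM (BXD12/TyJ). Bcl6 ran from 4.20 CPM (BALB/cJ) through 15.4 to 103 CPM (BXD75/RwwJ), and Cux2 from 0.931 CPM (C57L/J) through 33.8 to 144 CPM (BXD27/TyJ). BXD75/RwwJ, highest in Bcl6, was the BXD strain lowest in Cish.

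Of the binding proteins, Igfbp2 ran from 25.9 CPM (NZB/BlNJ) through 177 to 647 CPM (BXD67/RwwJ). Igfbp1 ran from 13.4 CPM in DBA/2J through 188.5 to 2849 CPM in BXD38/TyJ, a 213-fold span and the widest of the 10 genes. NZB/BlNJ was thus the lowest strain for both Ghr and Igfbp2.

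**Figure D3:**
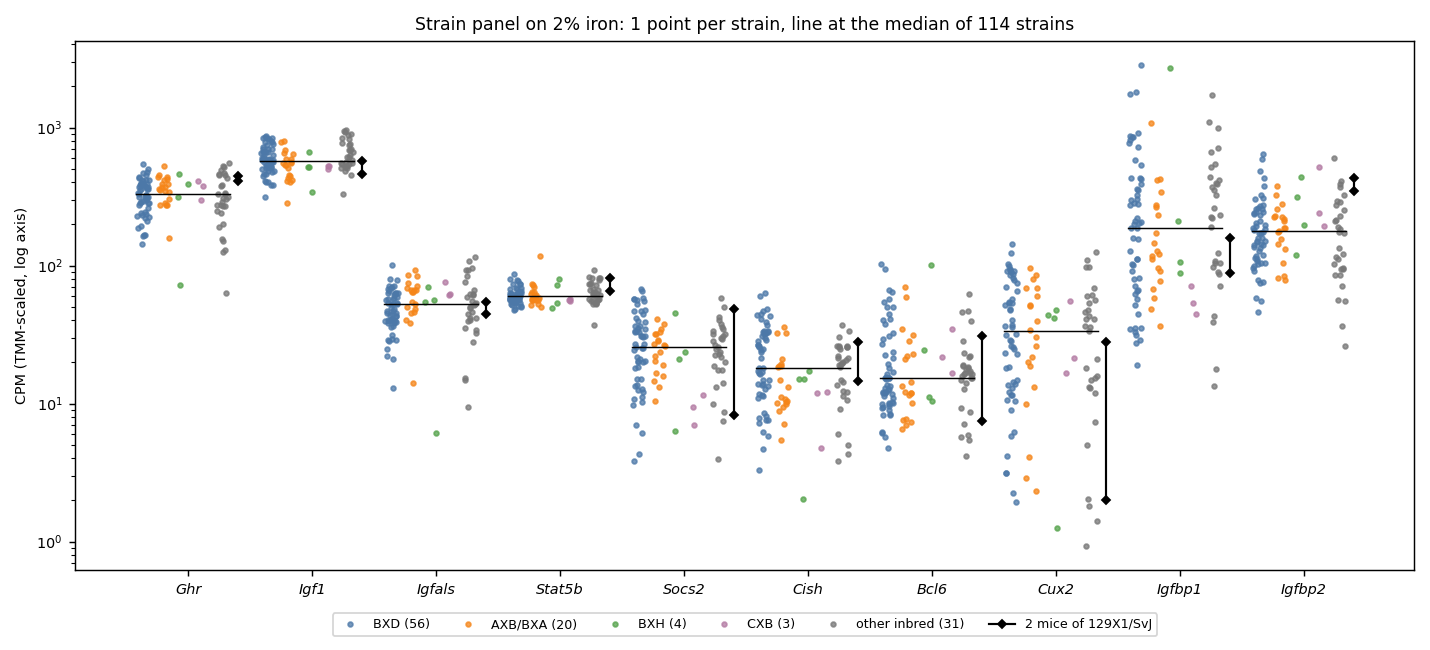
Levels (TMM-scaled CPM, log axis) of the 10 genes in the strain panel on 2% iron, 1 point per strain, coloured by strain family, with a line at the median of 114 strains and black diamonds for the 2 mice of 129X1/SvJ. Stat5b and Igf1 are narrow, Igfbp1 and Cux2 span 213-fold and 155-fold, and the 2 mice of 1 strain lie far apart for Cux2, Socs2 and Bcl6.

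For some genes the 2 mice of 1 strain lay far apart. The 2 mice of 129X1/SvJ had 48.2 and 8.29 CPM of Socs2, 7.47 and 30.7 CPM of Bcl6, and 27.7 and 2.00 CPM of Cux2, differences of 2.52, 2.02 and 3.69 on the log2 scale. They had 27.9 and 14.6 CPM of Cish and 88.5 and 158 CPM of Igfbp1. Ghr, Igf1, Igfals, Stat5b and Igfbp2 differed by at most 0.32. The second mouse was low in Socs2, Cish and Cux2 and high in Bcl6.

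The SD between strains on the log2 CPM scale was set beside the pooled SD within the diet groups, with a median ratio of 1.69 over 12343 genes. Ghr had a ratio of 3.47 (SD 0.56 between strains, 0.16 within diets), Igfbp2 of 2.71 and Igfbp1 of 2.599. Igfals (2.00) and Igf1 (1.72) lay just above the median gene, and Stat5b (1.48), Bcl6 (1.40) and Cux2 (1.33) below it. Cish (1.11) and Socs2 (0.843) varied between strains about as much as between mice of 1 strain and diet. In within-diet SD, Socs2, Cish, Bcl6 and Cux2 ranked above 97.1% or more of all genes. The Cux2 values rest on the second 500 ppm mouse. Without it the within-diet SD of Cux2 went from 1.25 to 0.63, above 96.4% of genes, and its ratio to 2.61, above the median gene (1.74), while Igf1 (1.71) came to lie just below that median. On the log2(TPM + 1) scale, with all mice, the ratio of Cux2 was 1.66 and that of the median gene 1.59.

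Of the parents of the recombinant strains, C57BL/6J and DBA/2J lay furthest apart in Cux2 and Igfbp1. DBA/2J had 1.80 CPM of Cux2 and 13.4 CPM of Igfbp1, while C57BL/6J had 36.4 and 390 CPM and A/J 45.96 and 190 CPM. Ghr was at 238 CPM in C57BL/6J, 462 in DBA/2J and 555 in A/J. C57BL/6J and A/J lay further apart in Bcl6 (15.3 and 62.3 CPM) and Cish (13.7 and 3.82 CPM) than in Cux2 or Igfbp1. Of the 56 BXD strains, 16 lay outside the range of their parents in Ghr and 16 in Igfbp1, and 26 (Cux2) to 53 (Cish) did in the other genes. Of the 20 AXB/BXA strains, 1 lay outside in Ghr and 8 (Igfbp2) to 19 (Cux2) in the others. These counts depend on how far apart the parents lay, and each parent is 1 mouse. For Cish the BXD parents were at 13.7 CPM (C57BL/6J) and 12.1 CPM (DBA/2J). The share over all genes was not computed. The panel's C57BL/6J mouse and the diet mice come from tables normalized separately, and no test was made across them; its Ghr level lay below the 2% iron mice (250.8 to 311 CPM) and its Cux2 level above them (6.22 to 13.2 CPM). Beside the 2% iron mice with cellulose, its Ghr level lay just below theirs (241 to 263 CPM) and its Cux2 level within theirs (27.9 to 45.2 CPM).

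Between the BXD and AXB/BXA families, none of the 10 genes was called by edgeR (11.6% of 13794 genes were), and 2 of 10, Cish and Igfals, had an unadjusted p under 0.05; DESeq2 called none either. The closest was Cish, with a median of 22.6 CPM in BXD and 12.2 in AXB/BXA strains, a log2 difference of 0.58 (SE 0.23, edgeR adjusted p = 0.0972).

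Pairs of the 10 genes were then related across strains on the log2 CPM scale, with 100000 permutations each. A mixture fit split Igfals into 106 and 8 strains (Ashman D 3.21, with above 3 counted as separate clusters), and it was kept out. That left 36 pairs, of which 18 passed an adjusted permutation p of 0.05 for Pearson's r and 13 for Spearman's rho. The tightest was Ghr with Igfbp1, at r = -0.700 and rho = -0.731 (adjusted permutation p = 4e-05 for r, from the smallest p that the permutations can give, 1e-05). Strains with less receptor transcript had more Igfbp1. The relation was present within BXD (r = -0.735), AXB/BXA (r = -0.687) and other inbred strains (r = -0.666), and at r = -0.689 without the 2 strains farthest from the median of Ghr.

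Ghr was also negatively related to Cux2 (r = -0.513, rho = -0.599) and Socs2 (r = -0.501, rho = -0.626), both at an adjusted permutation p of 4e-05. Within families, r with Cux2 was -0.604 in BXD, -0.570 in AXB/BXA and -0.507 in other inbred strains, and r with Socs2 was -0.680, -0.319 and -0.373. Without the 2 strains farthest in Ghr, r was -0.547 and -0.550. Ghr and Igfbp2 were positively related (r = 0.395, rho = 0.338, adjusted permutation p = 4e-05 for r), at 0.122 within BXD, 0.307 within AXB/BXA and 0.616 within other inbred strains, and at 0.323 without the 2 farthest strains. That relation was thus weak within the BXD strains.

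Cish and Bcl6 were negatively related (r = -0.570, rho = -0.465, adjusted permutation p = 4e-05 for r). Within families r was -0.559 in BXD, -0.595 in AXB/BXA and -0.558 in other inbred strains, and -0.508 without the 2 strains farthest in Cish. Cish and Socs2 were positively related (r = 0.453, rho = 0.419, adjusted permutation p = 4e-05 for r), at 0.465 within BXD, 0.120 within AXB/BXA, 0.349 within other inbred strains and 0.4596 without the 2 farthest.

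Socs2, Cux2 and Igfbp1 went up and down together. Socs2 and Cux2 had r = 0.568 and rho = 0.573, Socs2 and Igfbp1 r = 0.525 and rho = 0.595, and Cux2 and Igfbp1 r = 0.518 and rho = 0.521, each with an adjusted permutation p of 4e-05 for r. In the same order, r was 0.695, 0.573 and 0.529 within BXD, 0.263, 0.567 and 0.508 within AXB/BXA, 0.486, 0.345 and 0.611 within other inbred strains, and 0.553, 0.578 and 0.548 without the 2 farthest strains. On this scale Igf1 passed with Socs2 alone (r = 0.301, rho = 0.319, adjusted permutation p = 0.00461 for r; 0.403 within BXD, 0.272 within AXB/BXA, 0.273 within other inbred strains and 0.347 without the 2 farthest), and on the log2(TPM + 1) scale that r was 0.0909. Ghr and Igf1 had r = 0.198 and rho = 0.0325 on the log2 CPM scale (adjusted permutation p = 0.0652 for r), but r = 0.454 and rho = 0.280 on the log2(TPM + 1) scale (adjusted permutation p = 3.6e-05 for r). Centred within families on log2 CPM the r of that pair was 0.246 (adjusted permutation p = 0.0166), within BXD it was -0.0771, and without the 2 farthest strains it was 0.0499. Within BXD alone, Igf1 also passed with Stat5b (r = -0.395), Cux2 (r = 0.385) and Igfbp2 (r = -0.364). The other 8 called pairs, 4 of them with Stat5b, had r between -0.275 and 0.247.

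**Figure D4:**
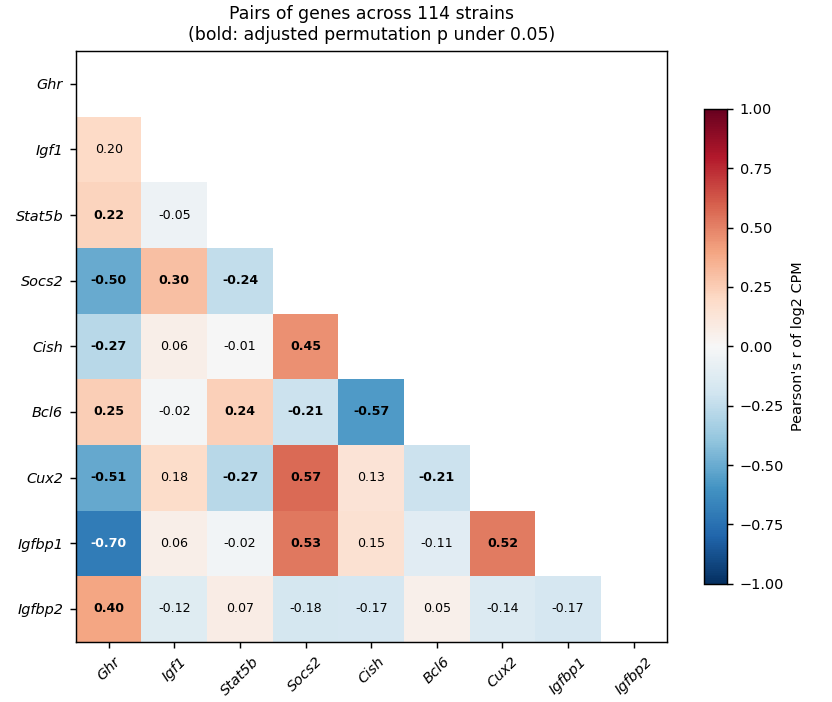
Pearson's r of log2 CPM for 36 pairs of 9 genes across 114 strains (colour and printed value), in bold where the adjusted permutation p is under 0.05. Ghr is negative with Igfbp1 (-0.70), Cux2 and Socs2, Cish is negative with Bcl6 (-0.57), and on this scale Igf1 passes with Socs2 alone.

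**Figure D5:**
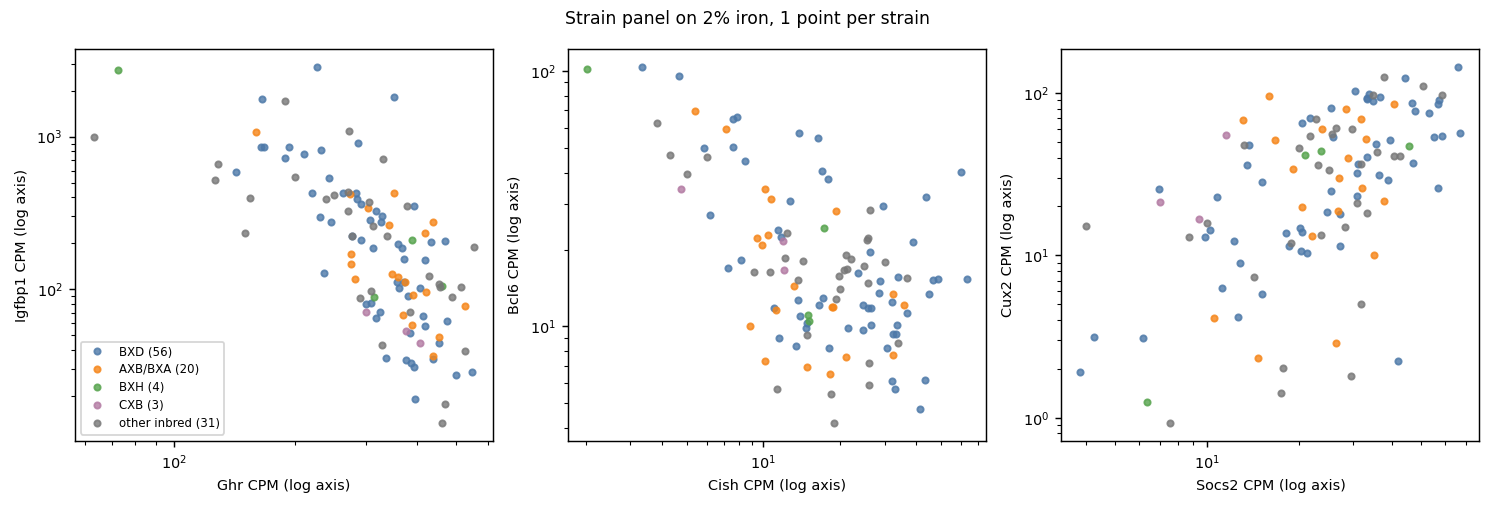
Levels of Igfbp1 against Ghr, Bcl6 against Cish and Cux2 against Socs2 (CPM, log axes), 1 point per strain, coloured by family. Igfbp1 is lower where Ghr is higher, Bcl6 is lower where Cish is higher, and Cux2 is higher where Socs2 is higher.

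The 8 strains of the low Igfals cluster were BTBR T<+> tf/J, BXA12/PgnJ, BXD21/TyJ, BXD22/TyJ, BXD38/TyJ, BXH2/TyJ, KK/HlJ and NZB/BlNJ, at 6.13 to 22.05 CPM. The other 106 strains began at 24.9 CPM, so no wide gap parted them from the 8. Within the other 106 strains, Igfals was related to Ghr (r = 0.552, rho = 0.506) and to Igfbp1 (r = -0.585, rho = -0.557), each with an adjusted permutation p of 4.5e-05, and at 0.521 and -0.580 without the 2 strains farthest in Igfals. Within the 8 low strains, r with Ghr was 0.828 (exact permutation p = 0.0108, adjusted p = 0.0969) and 0.472 without 2 of them, so it rests on those 2. No axis gene was related to the library total (smallest adjusted permutation p 0.71).

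The pathway lists were set beside each gene across the 114 strains as Spearman's rho, as a description over points that share libraries. Cux2 was negative with all 24 male-biased genes (median rho -0.58) and positive with 31 of 34 female-biased genes (median 0.41). Bcl6 was positive with all 24 male-biased genes, but weakly (median 0.24). Ghr was positive with 22 of 24 male-biased genes (median 0.60), and Igfbp1 and Socs2 were negative with 23 and 22 of them (medians -0.60 and -0.46). Igf1 was positive with 12 of the 24 (median 0.00). Over 12896 genes the median rho with each of these 6 genes was between -0.01 and 0.00.

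Macrophage markers moved with most of these genes over the strains. Their rho with Ghr was negative for 17 of 17 markers (median -0.43) and with Igfals for 17 of 17 (median -0.30), and with Igfbp1 it was positive for 16 of 17 (median 0.23). It was also positive for 16 of 17 with Socs2 (median 0.22), 16 with Cish (0.22) and 15 with Cux2 (0.14), and positive for 1 of 17 with Igfbp2 (median -0.22) and 1 with Bcl6 (-0.13). With Igf1 (median 0.03) and Stat5b (median 0.00) it was positive for 12 and 8. Of all 12896 genes, between 6266 (with Igf1) and 6667 (with Stat5b) had a positive rho with each axis gene. Of 12 hepatocyte markers, 9 were positive with Ghr, 9 with Igfals and 6 with Igfbp1. The macrophage markers share a cell type and libraries, so they are not separate observations. The summed level of the 17 markers ran from 306 to 1474 CPM over the panel. Their part in the relations was not tested.

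Over all 12003 genes searched, the transcripts most like each axis gene across the 114 strains differed between them. Most like Ghr were Cyp4v3 (rho 0.862), Car3 (0.860) and Cat (0.855), the last encoding catalase, and the least alike was Ccdc120 (-0.779). Most like Igfbp1 were the growth arrest genes Btg2 (0.816) and Cdkn1a (0.798) and Desi2 (0.797), with Acy3 at the other end (-0.823). Most like Cux2 were Cbr1 (0.783), Akr1b7 (0.763) and Nipal1 (0.740), with Arsa at -0.728.

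The inhibitors had other neighbours. Those of Socs2 were Zfp609 (0.684), B4galt1 (0.659) and Zfp292 (0.653), with the telomerase gene Tert at -0.689, and those of Cish included the transcription factors Foxq1 (0.642) and Onecut1 (0.553). Igfals was most like Clcn2 (0.713) and least like Klf6 (-0.675), and Igfbp2 most like Hsd17b6 (0.622) and least like Cfl1 (-0.577). For Igf1 (Pde3b, 0.596), Stat5b (Ap2a2, 0.552) and Bcl6 (Ddx17, 0.418) the nearest gene was less close. The order of strains in CPM and in TPM agreed less for Igf1 (rho 0.678) and Stat5b (0.788) than for the other genes (0.910 to 0.995), which limits what their relations can show.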

How the data were processed

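The authors deposited expected counts per gene and TPM for each mouse, in separate tables for the diet study and the panel. Per the submitters' processing notes, kallisto 0.46 and mm10 were used, and which step used which is not given in the sources used here. Libraries were stranded mRNA libraries per the labels' protocols. The design assumed counts; the expected counts, of which 26.5% and 27.4% were not whole, were rounded. Symbols and coordinates came from GENCODE M21 (GRCm38), which matched 34845 of 35274 and 35612 of 35711 identifiers.

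Genes were tested with edgeR 4.0.16 (R 4.3.3, glmQLFTest, TMM, filterByExpr, Benjamini-Hochberg, two-sided), with 7 contrasts of 1 diet fit and a separate fit of 2 strain families. DESeq2 1.42.0, limma 3.58.1, RLE factors, other filters and each mouse left out were alternatives. Exact tests of single values were not used, since 3 against 3 mice cannot go below p = 0.1. Relations used log2 CPM (prior count 2), with the 2 mice of 129X1/SvJ averaged, and Python 3.11.15. Separate clusters meant an Ashman D above 3 and a BIC gain over 10 in a mixture fit. The tests were checked on simulated data.

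The members and lists were chosen with earlier results of these data known. Named list genes are among the 3 largest called rises and falls per list, of at least 1 CPM (2 for other contrasts); likeness leaves out axis genes, predicted genes and pseudogenes. Some items are not reported here.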

Additional observations from a re-analysis of the deposited data

Results flagged for a closer look

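In the BXH family of 4 strains, 4 of the 10 genes had 1 strain far from the other three. The gap to the nearest strain, as a share of the family's whole range on the CPM scale, passed Dixon's 95% critical value. BXH14/TyJ was lowest in Cish (2.03 CPM against 14.98 to 17.3 CPM, a gap of 0.847 of the range) and lowest in Cux2 (1.26 CPM against 41.8 to 47.3 CPM, 0.880). It was highest in Bcl6 (101 CPM against 10.5 to 24.4 CPM, 0.847). BXH2/TyJ was highest in Igfbp1 (2717 CPM against 88.9 to 212 CPM, 0.953) and had the lowest Ghr of the 4, at 72.5 CPM. The flags depend on the scale. On log2 CPM, Bcl6 of BXH14/TyJ (6.67 against 3.41 to 4.62) and Igfbp1 of BXH2/TyJ (11.4 against 6.48 to 7.73) would not reach the critical value. Igfals of BXH2/TyJ (2.65 against 5.77 to 6.13) would. Chance alone flags about 1 in 20 groups, the 10 genes share their libraries, and each strain is 1 mouse.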

How the results depend on the processing

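The number of axis genes called on 2% iron against 50 ppm was 4 and ran from 2 to 5 when 1 mouse was left out, with 2 without the third 2% iron mouse, the first 50 ppm mouse or the third. With cellulose it was 6 and ran from 3 to 7 (3 without the third 50 ppm mouse), and against 500 ppm it was 2 and ran from 1 to 4. Against chow it was 5 and ran from 4 to 5. The change of Igf1 on 2% iron against 50 ppm turned positive with limma on log2(TPM + 1) and on log2(TPM + 0.1) (0.0752 and 0.0755) and ran from -0.13 to 0.13 with 1 mouse left out. Of 36 relations 18 were called, but 1 within the 20 AXB/BXA strains and 6 within the 31 other inbred strains, which hold fewer strains. Within AXB/BXA, r turned positive for Socs2 with Bcl6 (0.0214) and Bcl6 with Cux2 (0.115). The cause was not tested. Over single values, 427 alternatives kept the direction and the side of the threshold, 79 lost the call, 8 gained one, 7 turned in sign (5 of them for Igf1) and 25 counts of called list genes moved by over 1.5 times. Comparisons with no called member kept that count in all settings run. The count of 9 of 10 genes varying more between strains than within diets held in all settings too. The median gene also varied more between strains, with a ratio of 1.69 over 12343 genes in log2 CPM. The limma fits on TPM moved the median of all genes by 0.05 to 0.14 on the log2 scale in the contrasts of 2% iron. Low counts limit Cux2, Cish and Socs2 in the diet study. No paired analysis was possible because the labels carry no replicate numbers. The setting without the second 500 ppm mouse, in contrasts that do not use it and in the spread, was chosen after seeing the data.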
